A study of Mus musculus with 2 samples.

Results

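The solute carriers are membrane proteins that move small molecules across the plasma membrane and the membranes of organelles. Genes were chosen by symbol, as any gene named Slc followed by a family number, letter and member number, or Slco, with the mitochondrial Slc25 family left out. A mean of the 2 arrays of 8.5 or more on the deposited log2 scale was also required. The level of each gene was thus used in choosing it. Slc36a4, Slc35e3, Slc43a3 and Slc22a13 were under 8.5 in the knockout and passed only through the heterozygote. For these genes the choice was not independent of the difference. In all 109 genes met both conditions, of 331 such genes measured and of 19938 genes on the arrays, and 222 carriers were under the limit. Just inside the limit were Slc22a13 with a mean of 8.502, Slc35e3 with 8.54 and Slc43a3 with 8.55, and just outside were Slc12a2 with 8.49, Slc26a10 with 8.48 and Slc16a10 with 8.48. Of the 109, 4 carry the name of a carrier without being one: Slc9a3r1, a scaffold protein, Slc4a1ap, a binding partner of an anion exchanger, Slc7a6os, a gene on the strand opposite to Slc7a6, and the pseudogene Slc2a4rg-ps.

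The cells were CD4+ T cells from mouse spleen, sorted by flow cytometry for high TCRbeta and CD4 and enriched for naive cells by low surface CD44. The Taf7 knockout sample (Taf7 -/-) came from TAF7f/- mice with the 8EIII-cre transgene, and the Taf7 heterozygote sample (Taf7 +/-) from mice with the same floxed and null alleles but no Cre. By these genotypes a null Taf7 allele is shared by both groups and neither is wild type. The labels give a background of C57/BL6 and 129 mix for both. The ages of the mice, the number pooled and the cells in which the transgene is active are not stated. TAF7 is a subunit of TFIID, the general factor that recognises core promoters of genes read by RNA polymerase II.

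With 1 array per genotype there was no replicate, and no difference below has an error or a test. Differences are knockout minus heterozygote on the log2 scale of RMA signals, a log2 measure of hybridised RNA, and genes were counted as past 1.5-fold or past 2-fold. Signals of different genes depend on their probes and were not set against each other. Taf7 had a log2 signal of 7.79 in the knockout and 8.34 in the heterozygote, a difference of -0.55, but a probe outside the deleted part would not check the genotype, and probe positions are not given. Of the 11 T cell markers listed for CD4 T cells, 9 were measured and all lay between 11.1 and 13.5 on both arrays. Of these, 6 were lower in the knockout, with a median of -0.17. Thy1, with 12.21 in the knockout and 13.14 in the heterozygote, was at -0.93 and Cd3d at -0.50, and their relation to the low carriers was not tested. In bulk samples, fewer cells of a type and less RNA per cell cannot be told apart.

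Naive T cells are small and divide rarely, and they take up amino acids, glucose, nucleosides and metal ions through these carriers. On activation they raise the uptake of leucine, glutamine and glucose, through the heterodimer of Slc3a2 and Slc7a5, through Slc1a5 and through Slc2a1. Carriers in the Golgi and endoplasmic reticulum supply nucleotide sugars for glycosylation, those of lysosomes return amino acids to the cytosol, and zinc carriers fill or empty the secretory pathway.

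Most carriers differed little between the knockout and the heterozygote, and the few large differences were all lower in the knockout. Lower was also the commoner direction among all genes with a mean of 8.5 or more. Of those genes, 250 were at least 1.5-fold lower and 30 at least 1.5-fold higher. Of the 109 genes, 6 (5.50%) were at least 1.5-fold lower, where 3.06% of the 8176 genes with a mean of 8.5 or more were. They were the nucleoside carriers Slc28a2b and Slc28a2, the monocarboxylate family member Slc16a5, the amino acid carrier Slc36a4, the nucleotide sugar carrier Slc35d2 and the urea carrier Slc14a1. Of these, Slc36a4 passed the limit on the mean only through the heterozygote, with 8.41 in the knockout. None of the 109 genes was at least 1.5-fold higher, against 0.367% of all genes. At least 2-fold lower were 2 (1.83%), against 0.342% of all genes, and none was at least 2-fold higher, where 0.0367% were. The median difference of the 109 genes was -0.08, as it was for all 8176 genes, and 69 of them (63.3%) were lower by any size, against 66.1% of all genes. Under 3 other scalings of the arrays, 54 or 55 of them (49.5% to 50.5%) were lower by any size. The share of all genes at least 1.5-fold lower was then between 1.77% and 1.92%, that of genes at least 1.5-fold higher between 0.599% and 0.612%, and 5 carriers were at least 1.5-fold lower, without Slc14a1. The central part of the distribution was likewise alike, with the 25th and 75th percentiles at -0.21 and 0.05 for the carriers and at -0.22 and 0.05 for all genes.

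**Figure D1:**
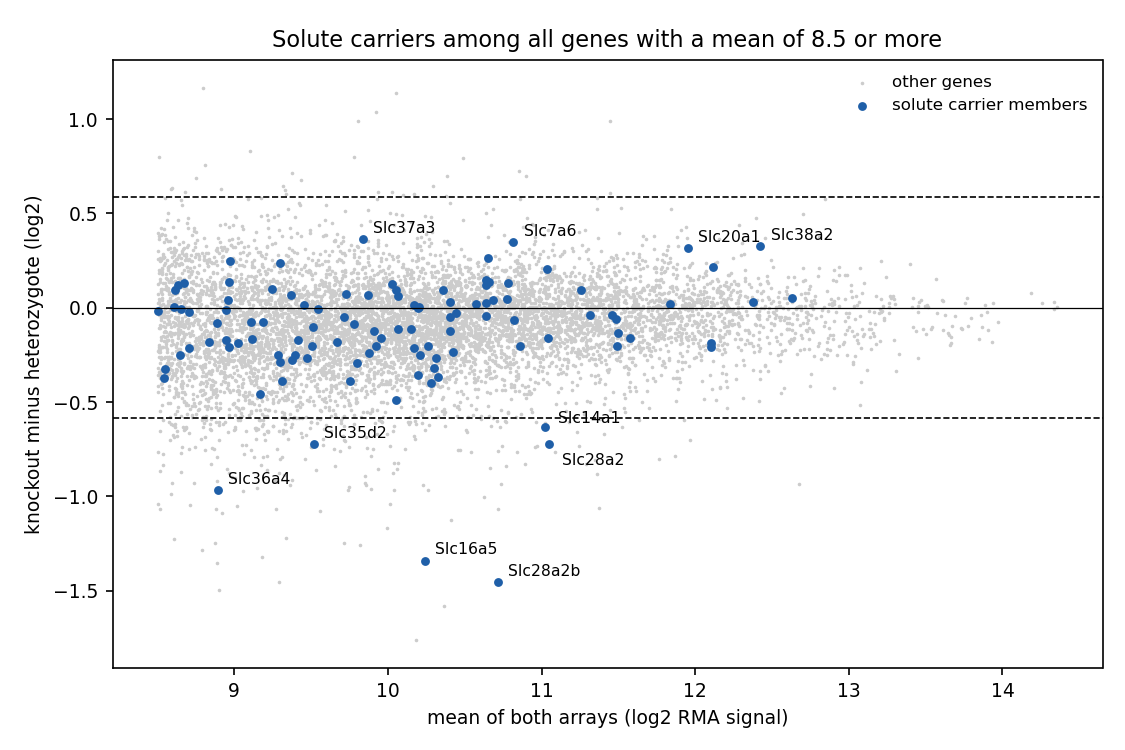
Difference of knockout minus heterozygote (log2, vertical axis) against the mean of both arrays (log2 RMA signal, horizontal axis) for the 109 solute carrier genes (blue) and all other genes with a mean of 8.5 or more (grey). Dashed lines mark 1.5-fold. The 6 labelled carriers under the lower line lie between -0.63 and -1.45, and no carrier lies above the upper line.

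Sequences are shown for the start regions of the pair of nucleoside carriers, because these neighbouring genes had low values together, with Slc36a4 and Slc38a2 for contrast. They are RefSeq windows of assembly GRCm38.p6, from 250 bases before to 50 bases after the annotated start, given 5′ to 3′ on the strand of the gene, with every CG dinucleotide in capitals. The Slc28a2b window is chr2:122484691-122484990 on the plus strand, that of Slc28a2 is chr2:122426185-122426484 on the plus strand, that of Slc36a4 is chr9:15709488-15709787 on the plus strand, and that of Slc38a2 is chr15:96699679-96699978 on the minus strand.
Slc28a2b: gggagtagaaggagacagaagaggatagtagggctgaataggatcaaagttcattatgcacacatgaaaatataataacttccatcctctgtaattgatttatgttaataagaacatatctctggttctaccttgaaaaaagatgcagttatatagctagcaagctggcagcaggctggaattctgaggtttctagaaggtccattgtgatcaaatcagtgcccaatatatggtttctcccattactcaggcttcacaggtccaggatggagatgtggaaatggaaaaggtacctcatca
Slc28a2: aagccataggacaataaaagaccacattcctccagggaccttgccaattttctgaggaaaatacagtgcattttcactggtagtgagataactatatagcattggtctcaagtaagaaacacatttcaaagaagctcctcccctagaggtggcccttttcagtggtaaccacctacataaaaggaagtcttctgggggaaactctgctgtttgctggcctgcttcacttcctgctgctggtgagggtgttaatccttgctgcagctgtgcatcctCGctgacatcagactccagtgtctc
Slc36a4: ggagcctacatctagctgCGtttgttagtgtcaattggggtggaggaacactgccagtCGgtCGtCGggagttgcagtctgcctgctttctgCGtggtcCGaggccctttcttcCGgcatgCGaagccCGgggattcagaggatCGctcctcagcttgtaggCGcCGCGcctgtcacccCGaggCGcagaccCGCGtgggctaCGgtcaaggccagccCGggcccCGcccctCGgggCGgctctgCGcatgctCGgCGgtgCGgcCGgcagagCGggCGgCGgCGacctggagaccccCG
Slc38a2: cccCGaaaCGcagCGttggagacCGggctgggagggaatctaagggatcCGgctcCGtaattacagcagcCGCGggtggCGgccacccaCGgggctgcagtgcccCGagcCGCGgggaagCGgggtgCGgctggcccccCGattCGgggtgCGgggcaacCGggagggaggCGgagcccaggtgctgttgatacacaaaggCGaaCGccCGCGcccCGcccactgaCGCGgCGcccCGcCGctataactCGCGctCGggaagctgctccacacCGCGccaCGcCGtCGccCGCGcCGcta

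The Slc28a2b window held 0 CG dinucleotides and that of Slc28a2 held 1, whereas those of Slc36a4 and Slc38a2 held 32 and 41. GC content was 40% for Slc28a2b, 46.7% for Slc28a2, 69.0% for Slc36a4 and 73.0% for Slc38a2. Although the nucleoside carriers are of the same family, their windows were 58.7% identical in a global alignment, close to the 54.7% of Slc28a2b with Slc36a4 and the 52.3% of Slc28a2b with Slc38a2. RefSeq windows were matched for 83 of the 109 carriers, with 1 window used per gene, and 3 of the 6 carriers at least 1.5-fold lower were among them. The median number of CG dinucleotides was 20 over these 83, and 22 over the 6653 matched genes with a mean of 8.5 or more. A window with 5 or fewer was held by 6 carriers (7.23%), against 6.93% of those genes: Slc28a2b, Slc28a2, the zinc importer Slc39a10, the urate and sugar carrier Slc2a9, Slc22a13 and the nucleotide sugar carrier Slc35b3. Their differences were -1.45, -0.72, -0.25, -0.10, -0.02 and 0.02. The limit of 5 was chosen after the windows of the pair had been seen, so this grouping of the carriers supports nothing about the differences. Of all matched genes with a mean of 8.5 or more, 42 of 461 with 5 or fewer (9.11%) were at least 1.5-fold lower. Among those with more than 5, 146 of 6192 (2.36%) were. The median difference was -0.08 in both groups, and a relation was not tested.

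The motif TATAAA, searched on both strands of the window, was found for 6 of the 83 carriers (7.23%), 6.25% of matched genes with a mean of 8.5 or more and 14.2% of all 27025 windows. None of the 4 windows printed holds it. The motif GGGCGG, also on both strands, was found for 58 carriers (69.9%), 67.5% of matched genes with a mean of 8.5 or more and 35.9% of all windows. It was present for Slc36a4 and Slc38a2 and not in the windows of Slc28a2b and Slc28a2. The motifs have no letters in common, so their matches cannot overlap.

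Nucleoside and nucleobase carriers had the lowest median of any class with more than 3 members, at -0.36 over 6 genes. Slc28a2b had 9.99 in the knockout and 11.44 in the heterozygote, a difference of -1.45 or 2.74-fold lower, which was rank 5 from the lowest among the 8176 genes. Slc28a2, which encodes the sodium-coupled purine nucleoside carrier CNT2, had 10.69 in the knockout and 11.41 in the heterozygote, 1.65-fold lower. These genes are neighbours in the reference gene order, and since the probe sequences are not given here, signal shared between such related genes cannot be told apart. Slc29a1, the equilibrative nucleoside carrier ENT1 of the plasma membrane, had 9.56 in the knockout and 9.95 in the heterozygote, a difference of -0.39. Slc43a3, a purine nucleobase carrier, had 8.39 in the knockout and 8.71 in the heterozygote, a difference of -0.33. Neither of these passed 1.5-fold. The lysosomal Slc29a3 differed by -0.03 and Slc29a2, a further equilibrative carrier, by 0.00. Of these 6 genes, 2 (33.3%) were at least 1.5-fold lower, against 3.06% of all genes with a mean of 8.5 or more. Lower by any size were 5 (83.3%), against 66.1%. The class median was between -0.30 and -0.28 under 3 other scalings.

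Monocarboxylate carriers contained the other gene past 2-fold. Slc16a5, encoding MCT6, had 9.57 in the knockout and 10.91 in the heterozygote, a difference of -1.34 or 2.53-fold lower, at rank 7 from the lowest among all genes. The 3 other members of its family lay close to the median of all genes. Slc16a1, which encodes the lactate carrier MCT1, had 9.85 in the knockout and 9.97 in the heterozygote. Slc16a6 differed by -0.17 and Slc16a13 by -0.08. Of the membrane glycoproteins that bring such carriers to the cell surface, Bsg was at 11.52 in the knockout and 11.38 in the heterozygote, and Emb at 11.79 in the knockout and 12.08 in the heterozygote.

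**Figure D2:**
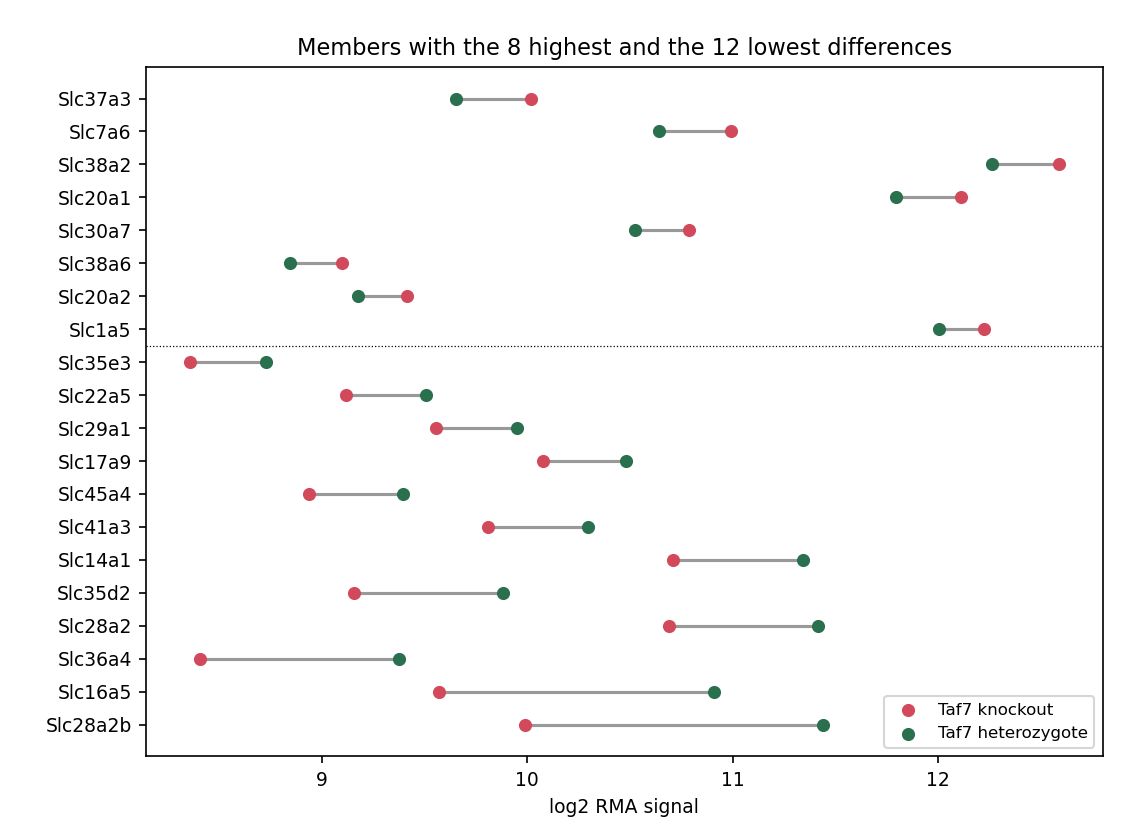
Log2 RMA signal (horizontal axis) of the carriers with the 8 highest (above the dotted line) and the 12 lowest differences, on the knockout array (red) and the heterozygote array (green). Slc28a2b lies at 9.99 in the knockout and 11.44 in the heterozygote, the widest gap, and the gaps of the 8 highest lie between 0.22 and 0.37.

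Amino acid and peptide carriers were split, with 8 of 16 (50%) lower and 8 higher. Of all genes with a mean of 8.5 or more, 66.1% were lower. The class median was -0.05, and it was between 0.01 and 0.03 under 3 other scalings of the arrays. Slc36a4, a carrier of proline and tryptophan, stood apart with 8.41 in the knockout and 9.37 in the heterozygote, 1.95-fold lower, while its lysosomal relative Slc36a1 was at 10.70 in the knockout and 10.66 in the heterozygote. The subunits of the leucine carrier lay within 1.5-fold. Slc3a2, the shared heavy chain CD98, had 11.997 in the knockout and 12.205 in the heterozygote, a difference of -0.21. Its light chain Slc7a5, or LAT1, had 11.497 in the knockout and 11.659 in the heterozygote. Slc7a6, an alternative light chain that exchanges arginine for neutral amino acids, had 10.99 in the knockout and 10.64 in the heterozygote, a difference of 0.35. Slc7a6 thus lay on the other side of 0 from Slc3a2 and Slc7a5. The arginine and lysine carrier Slc7a1 was at -0.23.

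The sodium-coupled carriers of glutamine and alanine also differed among themselves. Slc38a2, or SNAT2, had 12.59 in the knockout and 12.26 in the heterozygote, a difference of 0.33. Its neighbour in the gene order, Slc38a1, had 11.43 in the knockout and 11.57 in the heterozygote, a difference of -0.13. The second transcript cluster of Slc38a1, the arrays' unit of several probes for a transcript, gave 8.68 in the knockout and 9.51 in the heterozygote, a difference of -0.83. Slc1a5, the glutamine carrier ASCT2, had 12.22 in the knockout and 12.01 in the heterozygote. Slc38a6 was at 0.25. Among carriers of the lysosomal membrane, Slc38a9, which senses arginine for mTORC1, was at 0.14, the cationic amino acid carrier Slc66a1 at 0.12, the histidine and peptide carrier Slc15a4 at -0.20 and the glutamine exporter Slc38a7 at -0.25. The methionine and leucine carrier Slc43a2 was at -0.20 and Slc38a10 at 0.10.

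Carriers of sugars lay within 1.5-fold. Slc2a1, or GLUT1, the glucose carrier that activated T cells raise, had 11.46 in the knockout and 11.51 in the heterozygote. The difference of Slc2a1 was -0.06, and 0.02 after the median difference of all genes was subtracted. Slc2a3, or GLUT3, had 10.14 in the knockout and 10.46 in the heterozygote, a difference of -0.32. Slc37a3, a member of the sugar phosphate carrier family, had the highest difference of the 109 genes, 0.37, with 10.02 in the knockout and 9.65 in the heterozygote. Its relatives Slc37a1 and Slc37a4, of which Slc37a4 is the glucose 6-phosphate carrier, were at 0.12 and -0.05. Slc45a4 was the lowest of the class at -0.46, with 8.94 in the knockout and 9.39 in the heterozygote, and Slc50a1 was at 0.03. The median of the 8 genes was -0.05, and it was between 0.02 and 0.03 under 3 other scalings.

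Metal carriers, the class with the most members, had a median of -0.12, which was between -0.04 and -0.03 under 3 other scalings. Of these 20 genes, 13 (65%) were lower, against 66.1% of all genes with a mean of 8.5 or more. None passed 1.5-fold. Slc41a3, of a magnesium carrier family, was the lowest, with 9.81 in the knockout and 10.30 in the heterozygote, a difference of -0.49. Its relative Slc41a1, a magnesium exporter, was at 0.15. The zinc carriers of the secretory pathway differed in direction: Slc30a5 had 10.15 in the knockout and 10.51 in the heterozygote, a difference of -0.37, whereas Slc30a7 had 10.79 in the knockout and 10.52 in the heterozygote, a difference of 0.26. Slc30a6, which forms a complex with Slc30a5, was at -0.17 and Slc30a4 at -0.28. Of the zinc importers of the Slc39 family, 6 of 9 (66.7%) were lower, a share close to that of all genes. Differences in this family lay between -0.25 for Slc39a10 and 0.07 for Slc39a1. The other transcript cluster of Slc39a1 gave -0.09, of the opposite sign. Slc39a7, which releases zinc from the endoplasmic reticulum, had 10.62 in the knockout and 10.66 in the heterozygote. The copper importer Slc31a1 was at -0.21, its relative Slc31a2 at 0.00, and the iron carrier Slc11a2, or DMT1, at -0.20. The transferrin receptor gene Tfrc, through which T cells take up iron, was at 0.14.

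Nucleotide sugar carriers, with the endoplasmic reticulum acetyl-CoA carrier Slc33a1, had a median of -0.11 over 19 genes. This class median was between -0.04 and -0.02 under 3 other scalings. Lower were 11 of the 19 (57.9%), against 66.1% of all genes with a mean of 8.5 or more. Slc35d2, a carrier of UDP-N-acetylglucosamine in the Golgi, had 9.16 in the knockout and 9.88 in the heterozygote, 1.65-fold lower. The 18 other genes of the class lay within 1.5-fold. Slc35e3 was next lowest at -0.37 and Slc35a5 next at -0.36. Among carriers of known cargo, Slc35a3, which also carries UDP-N-acetylglucosamine, was at -0.27, Slc35b4, for UDP-xylose, at -0.27, and Slc35a1, which supplies sialic acid to the Golgi, at -0.19. Slc33a1 was at -0.25. The GDP-fucose carrier Slc35c1, needed for selectin ligands on leukocytes, was the highest at 0.13, with 10.84 in the knockout and 10.72 in the heterozygote. Slc35a2, the UDP-galactose carrier, was at 0.10 and Slc35e1 at 0.10. Both transcript clusters of Slc35a4 were lower, at -0.19 and -0.27.

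Ion carriers were close to equal, with a median of -0.02 over 10 genes that was between 0.04 and 0.06 under 3 other scalings. Slc8b1, the sodium and calcium exchanger of mitochondria, was the lowest at -0.25, and the potassium and chloride cotransporter Slc12a7 had 11.39 in the knockout and 11.59 in the heterozygote. Slc9a9, a proton exchanger of endosomes, was at -0.16, Slc9a8, its Golgi relative, at -0.04, and the anion exchanger Slc4a2 at 0.12. Slc26a11 and Slc26a6 were at 0.14 and 0.10, and the sulfate carrier Slc26a2 was at -0.12. Just under the limit on the mean, Slc12a2, the sodium, potassium and chloride cotransporter NKCC1, had 8.14 in the knockout and 8.83 in the heterozygote, 1.61-fold lower. Stk39, which encodes the kinase SPAK that activates this cotransporter, had 9.39 in the knockout and 10.33 in the heterozygote, 1.92-fold lower. The related kinase Oxsr1 and the upstream kinase Wnk1 were at -0.09 and -0.06. The phosphate importers were both higher: Slc20a1 had 12.11 in the knockout and 11.79 in the heterozygote, and Slc20a2 had 9.41 in the knockout and 9.18 in the heterozygote.

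**Figure D3:**
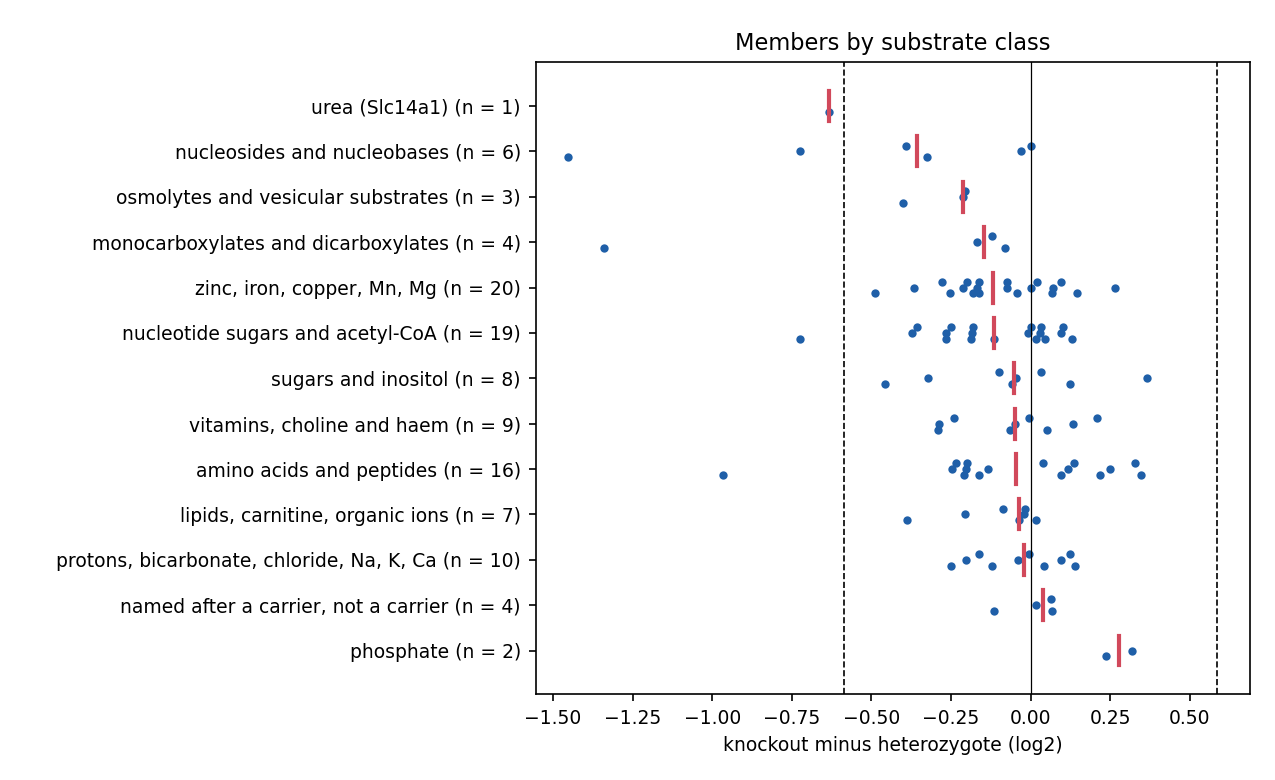
Difference of knockout minus heterozygote (log2, horizontal axis) of each of the 109 genes by substrate class, with 1 point per gene, the class median as a red bar and dashed lines at 1.5-fold. The nucleoside class has its median at -0.36, and the phosphate class, of 2 genes, at 0.28.

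Vitamin, choline and haem carriers had a median of -0.05 over 9 genes, and between 0.02 and 0.03 under 3 other scalings. The reduced folate carrier Slc19a1 was the lowest, with 9.65 in the knockout and 9.95 in the heterozygote, a difference of -0.29, but its second cluster gave -0.02. The lysosomal Slc46a3 was at -0.29, the haem carrier Slc48a1 at -0.07, the ascorbate carrier Slc23a2 at -0.05 and the riboflavin carrier Slc52a3 at -0.01. The multivitamin carrier Slc5a6 was at 0.13 and the lysosomal Slc49a4 at 0.21. The choline carrier Slc44a1 gave unlike values on its clusters. The one used had 9.759 in the knockout and 10.001 in the heterozygote, a difference of -0.24, while the other had 8.57 in the knockout and 9.91 in the heterozygote, a difference of -1.34. Its relative Slc44a2 had 12.66 in the knockout and 12.61 in the heterozygote.

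Of 7 carriers of lipids, carnitine and organic ions, 6 (85.7%) were lower, against 66.1% of all genes with a mean of 8.5 or more. The class median was -0.04, and it was between 0.01 and 0.04 under 3 other scalings. Slc22a5, the carnitine carrier OCTN2, had 9.116 in the knockout and 9.504 in the heterozygote, a difference of -0.39. The fatty acid carriers Slc27a1 and Slc27a4 were at -0.21 and 0.02, the organic anion carrier Slco3a1 at -0.04, Slc10a7 at -0.09, Slc22a17 at -0.02 and Slc22a13 at -0.02. All 3 carriers of osmolytes and vesicular substrates were lower: the vesicular nucleotide carrier Slc17a9 with 10.08 in the knockout and 10.48 in the heterozygote, the lysosomal sialic acid exporter Slc17a5 at -0.21 and the taurine carrier Slc6a6 at -0.20. Slc14a1, the urea carrier UT-B, had 10.71 in the knockout and 11.34 in the heterozygote, 1.55-fold lower, but its difference of -0.63 was between -0.58 and -0.56 under 3 other scalings, short of 1.5-fold. The genes that only carry a carrier's name lay between -0.11 for Slc4a1ap and 0.07 for Slc7a6os, with Slc2a4rg-ps at 0.06 and Slc9a3r1 at 0.02.

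Location, from a list of 41 carriers known to reside in organelles, gave similar medians. It was -0.07 for these and -0.08 for the other 68. The 68 are the genes not on the list, and not a set known to lie outside organelles. They include the mitochondrial Slc8b1 and the 4 genes that are not carriers. At least 1.5-fold lower were 1 of the 41 (2.44%), Slc35d2, and 5 of the other 68 (7.35%), against 3.06% of all genes. By level, the 52 carriers with a mean from 8.5 to 10 had a median of -0.14, against -0.11 for all genes in that range, and 2 of them (3.85%) were at least 1.5-fold lower, against 4.85%. The 38 from 10 to 11 had a median of -0.04, against -0.08, with 2 (5.26%) at least 1.5-fold lower, against 2.09%. The 19 at 11 or above had a median of -0.04, as did all genes, and 2 of them, Slc28a2 and Slc14a1, were at least 1.5-fold lower, where 0.990% of all genes in that range were. These ranges were chosen after the values were seen.

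Carriers under the limit were mostly higher in the knockout, as was the case for all genes of such low signal. Of the 222, 36 were lower, or 16.2%, against 20.6% of the 11762 genes with a mean under 8.5, and their median was 0.13, against 0.14. At least 1.5-fold lower were 2 (0.901%), where 1.3% of those genes were, namely Slc12a2 and the peptide carrier Slc15a2. Slc15a2 was the only one past 2-fold, where 0.179% were, with 6.43 in the knockout and 7.55 in the heterozygote. None was at least 1.5-fold higher, against 0.519%, or 2-fold higher, against 0.0085%.

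Other membrane transport genes with a mean of 8.5 or more also had few large differences. At least 1.5-fold lower were 3.06% of all genes at this level, and 66.1% were lower by any size. Of 18 ABC transporters, 1 was at least 1.5-fold lower, the lysosomal peptide transporter Abcb9, with 8.79 in the knockout and 9.64 in the heterozygote. Their median was -0.03, and Abcc10 was the highest at 0.38. Of 18 lymphocyte ion channels, 2 were at least 1.5-fold lower. The proton channel Hvcn1 had 10.95 in the knockout and 11.75 in the heterozygote, and the cation channel Trpv2 had 10.66 in the knockout and 11.27 in the heterozygote. The potassium channel Kcna3, which sets the membrane potential of T cells, was at 0.16. Of 21 pump and vacuolar ATPase genes none passed 1.5-fold, and their differences lay between -0.47 for Atp6ap2 and 0.06 for Atp1b3, a sodium pump subunit. Of 26 partners and regulators of carriers, 20 were lower, with a median of -0.12, and Stk39 was the only one past 1.5-fold. Txnip, which removes glucose carriers from the cell surface, was the highest of them at 0.21, and Myc and Hif1a, factors that raise the transcription of nutrient carriers in activated T cells, were at -0.18 and -0.21.

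**Figure D4:**
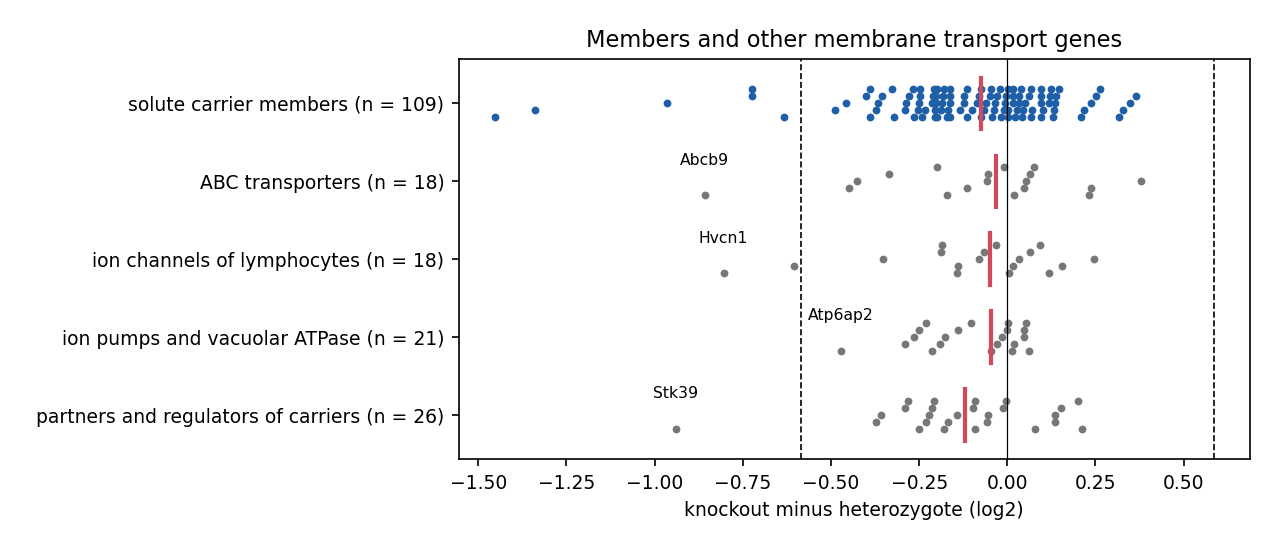
Difference of knockout minus heterozygote (log2, horizontal axis) of the 109 solute carrier genes (blue) and of 4 lists of other transport genes with a mean of 8.5 or more (grey), 1 point per gene, with the median as a red bar and dashed lines at 1.5-fold. The lowest gene of each list is labelled, and the medians lie between -0.12 and -0.03.

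Regulatory T cell markers were low in the knockout, whereas the 109 carriers as a set had a median like that of all genes. The 6 carriers at least 1.5-fold lower were picked for that direction, so sharing it with the markers was fixed by the choice. All 5 markers were lower in the knockout, with a median difference of -1.06 and a summed log2 signal of 44.9 in the knockout and 50.9 in the heterozygote. Foxp3 had 10.19 in the knockout and 11.25 in the heterozygote. Of 10 memory or activation markers 5 were lower and 5 higher, with a sum of 85.2 in the knockout and 87.2 in the heterozygote, and Cd44, also used in the enrichment, was at -1.35. Of 5 naive markers measured, 4 were lower, with a median of -0.19 and a sum of 63.9 in the knockout and 64.8 in the heterozygote. The part of these cells in the values of Slc28a2b, Slc16a5, Slc36a4 and the other low carriers was not tested. All 7 B cell markers measured were under 8.5, with a sum of 47.5 in the knockout and 46.3 in the heterozygote, as were all 9 myeloid, 5 natural killer, 4 erythroid and 4 platelet markers measured. Among 6 plasma cell markers 3 were lower, with a sum of 45.9 in the knockout and 47.7 in the heterozygote, and Igha was the lowest at -2.01. Of the 2 CD8 T cell markers, Cd8b1 was above 8.5, with 10.24 in the knockout and 10.50 in the heterozygote, a difference of -0.26. Cd8a was under 8.5, with 7.65 in the knockout and 7.63 in the heterozygote, a difference of 0.02.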

How the data were processed

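Total RNA of CD4+ T cells was hybridised to Affymetrix arrays, 1 per genotype. The deposited log2 signals were made by the authors with RMA in Affymetrix Expression Console version 1.1 on the core gene set, per the series design text and the submitters' processing notes. That text names an exon array, while the probe annotation used here is that of a mouse gene array, and the genome build is not stated. Of 35556 rows, 21789 had 1 gene symbol, 1621 several and 12146 none, and 3 of those with several held a carrier symbol and were left out. Identifiers of 21698 rows were in the RefSeq table of assembly GRCm38.p6, used for names and gene order, and 0 symbols changed. For genes with several transcript clusters the one of highest mean was used, as for 6 members. Values were not normalized further. Fold is 2 raised to the log2 difference.

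No test was run, since each genotype has 1 array, and the number of arrays limits precision. Members and lists were chosen with earlier results of these data known. The rules for naming took carriers past 1.5-fold, those at the limit, and the ends of other lists. They also took the 3 of highest mean, highest difference and lowest difference in each class. Not every gene that met these rules is named, Slc30a9 and several list ends being left out. Other genes, and the contrast windows, were chosen after their values were seen. Counting and scaling were run on simulated data with large planted differences and little noise, which checks the code and not the precision of these values. Alternatives were median centring, a loess trend (span 0.3), quantile normalization, averaged clusters, 1 cluster only, limits of 8.0 and 9.0, no limit, and no non-carriers. Tools were statsmodels 0.14.6, Biopython 1.88, matplotlib 3.10.9, pandas 2.3.3, numpy 2.4.6 and Python 3.11.15.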

Additional observations from a re-analysis of the deposited data

How the results depend on the processing

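No paired analysis was possible because there is only 1 array for either genotype, and for the same reason no array could be left out. The median difference of the carriers, -0.08, was 0.0033 after the median of all genes was subtracted, -0.0015 with the loess trend removed and -0.0002955 with quantile normalization. Subtracting the median moves every gene by the same amount, and the other scalings by amounts that vary with signal. With no limit on the mean it was 0.089, and 105 of 331 carriers were lower, because genes of low signal were mostly higher. The count at least 1.5-fold lower was between 5 and 8 under all 9 alternatives, and Slc28a2b, Slc28a2, Slc16a5 and Slc35d2 remained in all. Slc14a1 was lost under each of the 3 scalings, to as little as -0.56, and Slc36a4 with the limit at 9.0. Slc44a1 joined with clusters averaged, at -0.79, Slc12a2 with a limit of 8.0, and Slc12a2 and Slc15a2 with no limit. At 3 scalings, 5 class medians changed sign. For the 70 carriers that met the rules for naming, under the 3 scalings and averaged clusters, 279 values stayed within the robust SD of all genes, 0.19, of the main value. The 1 that did not was that of Slc44a1. Slc38a1, with clusters at -0.13 and -0.83, was not among the 70. The subtracted median was -0.08 for every gene, less in size than this SD, and averaging can change only genes with several clusters. For these 2 settings few values could therefore move.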
